A study of Danio rerio with 11 samples.

Results

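Macrophage marker genes were followed in the livers of zebrafish larvae that overexpress human UHRF1 in hepatocytes and in those of their WT siblings. The genes were chosen by name as macrophage markers: mpeg1.1, csf1ra, spi1b, ctss2.1, marco, mfap4, irf8, cd74a, grn1 and havcr1. Earlier results of these data were known when they were chosen. These 10 names matched 17 of the 32105 gene IDs counted. Of the names, 8 matched 1 ID each, whereas mpeg1.1 matched 3 IDs that are all named mpeg1 and mfap4 matched 6 IDs that are all named mfap4. The table of names does not say which mpeg1 ID is mpeg1.1, so each ID is described on its own.

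RNA was sequenced from 11 pools of dissected livers at 120 hpf, 5 from hUHRF1 larvae and 6 from WT larvae. The hUHRF1 larvae carry Tg(fabp10a:hUHRF1-EGFP)high, in which the hepatocyte promoter fabp10a drives human UHRF1 fused to EGFP, and the pooled larvae were EGFP positive. A pool held 30 livers for hUHRF1 (27 in clutch 6) and 20 for WT, so a library is an average over many larvae. Clutches 4, 6, 7, 8 and 9 are represented by a pool of each condition, and clutch 5 by WT livers alone. According to the labels both parents were carriers, whereas the methods give a mating to WT fish and larvae with the transgene on 1 chromosome copy.

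Macrophages arise in the zebrafish embryo from early myeloid progenitors and seed the tissues, the liver included, where they engulf dying cells and particles and degrade them in lysosomes. The transcription factors Spi1b (the zebrafish Pu.1) and Irf8 direct progenitors to the macrophage fate, and the receptor Csf1ra carries the survival signal of the ligands Csf1 and Il34. Mature macrophages express the pore-forming protein Mpeg1, scavenger receptors such as Marco, and the proteases and invariant chain of antigen presentation.

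Library totals were 9064943 to 19370497 counts for hUHRF1 and 15285359 to 23322479 for WT. TMM scaling factors, which correct for a shift in the makeup of the libraries, were 1.12 to 1.71 for hUHRF1 and 0.672 to 0.978 for WT. Values below are CPM (counts scaled to a common library size) after this scaling. Log2 fold changes (L2FC) are hUHRF1 over WT from edgeR's quasi-likelihood test, with a p-value adjusted over 15838 tested genes. The standard error (SE) was derived from that test, as the size of the L2FC divided by the square root of the F statistic. A gene was called at an adjusted p under 0.05. The median L2FC of all tested genes was 0.05.

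Macrophage marker genes were higher in hUHRF1 livers. Of the 17 IDs, 13 passed the filter on low counts and 11 of these were called higher, where 14.5% of all tested genes were called higher and 29.1% in either direction. The number called lower was 0 with edgeR, also at an unadjusted p under 0.05, and 0 with DESeq2, where edgeR called 14.6% of all tested genes lower. The pools of the conditions did not overlap for 7 of the 13, all higher in hUHRF1, where 8.05% of all tested genes were higher without overlap and 9.02% lower, 17.1% in either direction. The filter asked for 0.619 CPM in at least 5 pools, on CPM by library totals before TMM scaling. WT pools are lower on that scale than in the CPM printed here. Of the 13, 4 passed it through hUHRF1 pools without enough WT pools (spi1b, mpeg1 ENSDARG00000043093 and mfap4 ENSDARG00000089667 and ENSDARG00000090783), and mfap4 ENSDARG00000088745 passed it over both conditions together. The level of these 4 in hUHRF1 pools is what admitted them to the test, so these counts describe the genes tested and are no support by themselves. In the stricter table of 11732 genes that reached 10 counts in each pool, 6 of the 7 marker IDs retained were called higher, where 17.5% of its genes were called higher and 34.1% in either direction. The markers were chosen with earlier results of these data known, which the stricter table does not undo. Its count is therefore a description too. In bulk livers, more macrophages, a larger share of macrophages in the liver and more of these RNAs per macrophage cannot be told apart. The paper reports that hUHRF1 livers were smaller on average at this age and calls the difference significant at a later age. The part of other cells that express these genes was not tested.

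**Figure D1:**
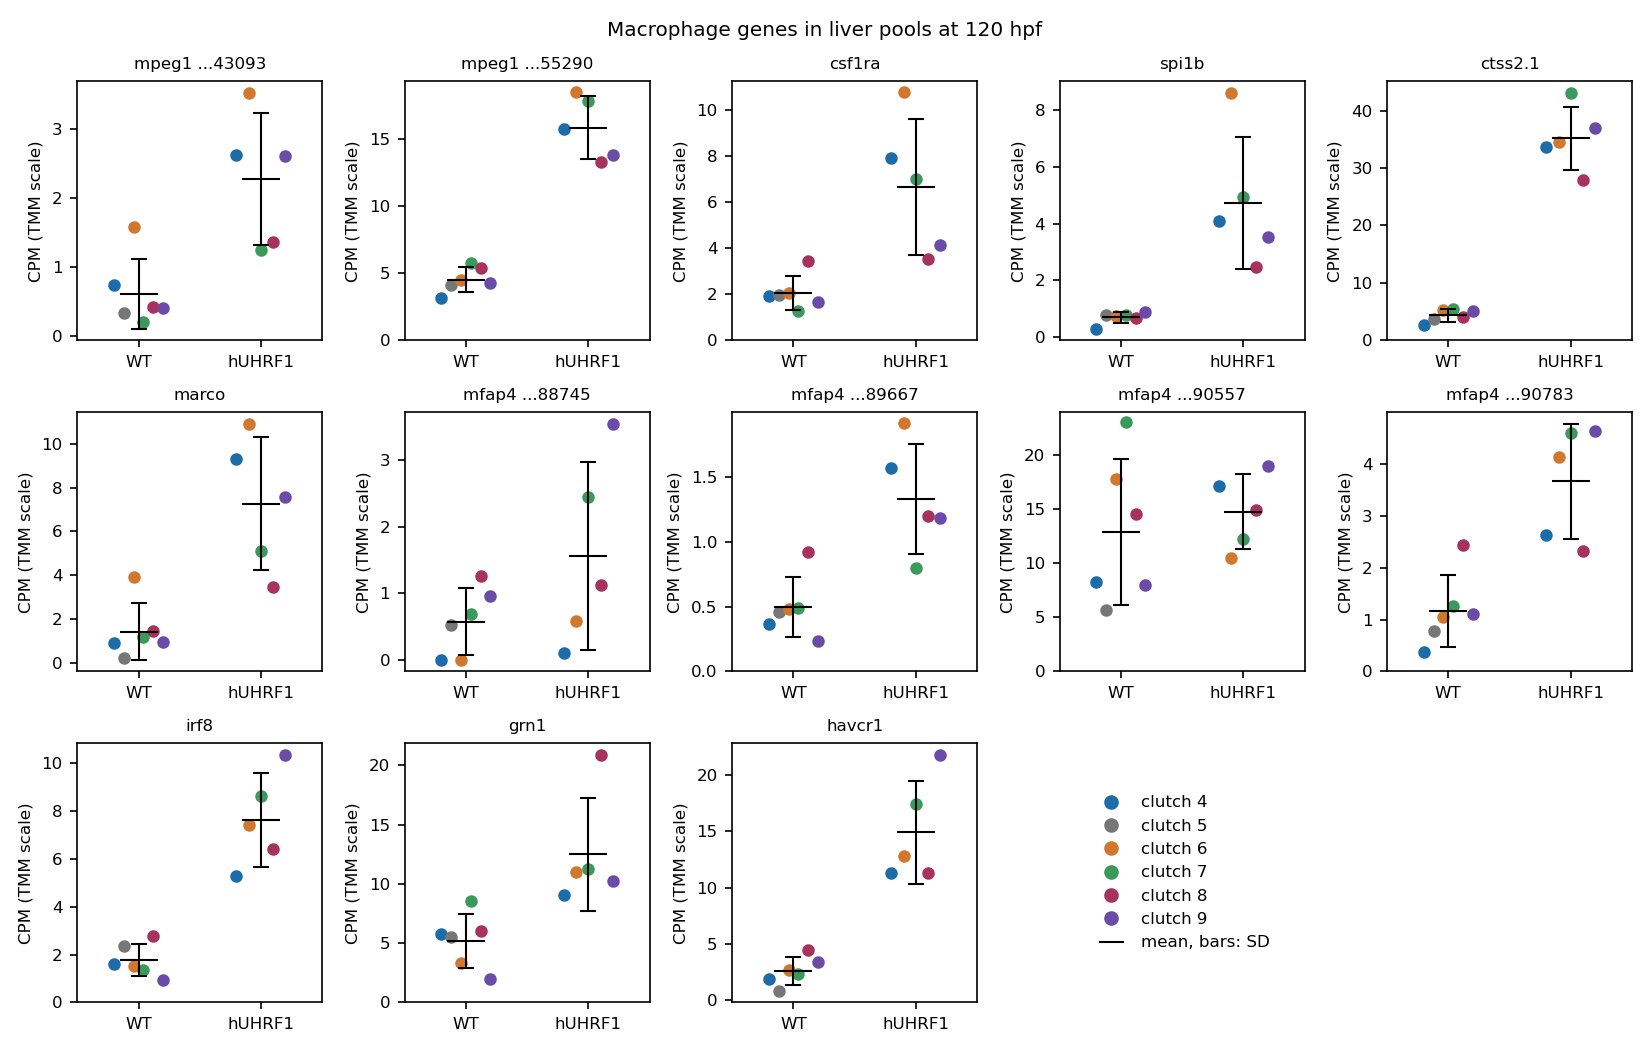
CPM on the TMM scale (vertical axes, linear, scaled per panel) of each of the 13 tested macrophage marker IDs in the 5 hUHRF1 and 6 WT pools; points are pools coloured by clutch, horizontal lines are means and bars are SD, and a shortened ID shows its last digits. The hUHRF1 pools of ctss2.1 sit between 27.9 and 43.0 CPM and its WT pools between 2.65 and 5.45, whereas the pools of mfap4 ENSDARG00000090557 overlap.

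The transcription factors of the macrophage lineage are described first. spi1b (ENSDARG00000000767, named SPI1 in the table) had 4.09, 8.59, 4.94, 2.48 and 3.54 CPM in the hUHRF1 pools of clutches 4, 6, 7, 8 and 9. Its WT pools had 0.294, 0.789, 0.746, 0.779, 0.672 and 0.872 CPM in clutches 4 to 9. The lowest hUHRF1 pool, that of clutch 8, lay above the highest WT pool, that of clutch 9. The means were 4.73 ± 2.34 (SD, n = 5) and 0.692 ± 0.205 (SD, n = 6), and edgeR gave an L2FC of 2.77 (SE 0.37) with an adjusted p of 0.000142. The WT level rests on 4 to 17 counts a library and the hUHRF1 level on 31 to 283, and spi1b was tested because of its hUHRF1 pools.

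irf8 (ENSDARG00000056407), which in zebrafish favours macrophages over neutrophils, had 5.29, 7.44, 8.63, 6.40 and 10.4 CPM in hUHRF1 pools. In WT pools it had 1.62, 2.37, 1.54, 1.36, 2.77 and 0.951 CPM. The groups did not overlap, and clutch 9 held both the highest hUHRF1 pool and the lowest WT pool. edgeR called irf8 with an L2FC of 2.102 (SE 0.29) and an adjusted p of 0.000181. The duplicate of spi1b, spi1a, gave another picture: its means were 13.1 ± 2.57 (SD, n = 5) in hUHRF1 and 13.7 ± 4.20 (SD, n = 6) in WT, with an L2FC of -0.07 (SE 0.22) and an adjusted p of 0.841 in edgeR. With libraries scaled by their totals only, the L2FC of spi1a was 0.75 with an adjusted p of 0.00956. The median L2FC of all tested genes was then 0.835.

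csf1ra (ENSDARG00000102986) encodes a receptor tyrosine kinase of macrophages that pigment cells of the zebrafish skin also use. It had 7.91, 10.7, 6.98, 3.52 and 4.13 CPM in hUHRF1 pools and 1.91, 1.97, 2.06, 1.27, 3.45 and 1.66 in WT pools. The groups were separated by a narrow gap, since the lowest hUHRF1 pool and the highest WT pool both came from clutch 8 and differed by little. The L2FC was 1.70 (SE 0.33) with an adjusted p of 0.00182 in edgeR. Within clutches the log2 ratio was 0.03 in clutch 8 and 1.25 to 2.36 in the other 4.

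The ligands of this receptor did not pass the test. csf1a had 11 counts over the hUHRF1 pools and 10 over the WT pools and was not tested. csf1b had an L2FC of 0.54 (SE 0.58, adjusted p = 0.51 in edgeR) and il34, a second ligand, 0.75 (SE 0.41, adjusted p = 0.188). The other receptor duplicate, csf1rb, was called with an L2FC of 1.81 (SE 0.49, adjusted p = 0.0127), at 0.425 to 2.11 CPM in hUHRF1 and 0.0974 to 0.460 in WT.

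Of the 10 tested genes listed for the CSF1 receptor and its signalling, 6 were called higher and 1 lower, with a median L2FC of 1.40. The 6 count csf1ra again, and without it 5 of 9 were called higher and 1 lower. Of all tested genes, 14.5% were called higher and 14.6% lower. plcg2, a phospholipase downstream of immune receptors, had 53.2 ± 9.67 CPM (SD, n = 5) in hUHRF1 and 12.6 ± 5.86 (SD, n = 6) in WT, with an L2FC of 2.08 and an adjusted p of 0.000173 in edgeR. The myeloid kinase gene hck had an L2FC of 2.06 (adjusted p = 0.00338) and syk 1.09 (adjusted p = 0.00911). pik3r5, a regulatory subunit of a leukocyte phosphoinositide kinase, had an L2FC of 2.18 (adjusted p = 0.00321), although it passed the filter in only 5 of the 11 comparisons with a library left out. The gene called lower was the kinase gene lyn, at an L2FC of -0.69 (adjusted p = 0.0316), named after its value was seen. lyn was not called without the hUHRF1 pool of clutch 4, 7 or 8 or the WT pool of clutch 4 or 5, and its L2FC was 0.11 by library totals only.

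The effector and lysosomal genes held the macrophage marker with the smallest adjusted p. ctss2.1 (ENSDARG00000074656), a cathepsin S gene whose mammalian counterpart trims the invariant chain, had 33.6, 34.5, 43.0, 27.9 and 36.9 CPM in hUHRF1 pools. WT pools had 2.65, 3.68, 5.22, 5.45, 4.12 and 5.15 CPM. Every hUHRF1 pool lay several times above every WT pool. The L2FC was 3.01 (SE 0.20), an 8.03-fold difference, with an adjusted p of 2.92e-06 in edgeR. The log2 ratio within clutches ranged from 2.70 to 3.61, and the exact two-sided permutation test over pools gave 0.00216, the smallest p that 5 against 6 pools allow. Its duplicate ctss2.2 was called as well, with an L2FC of 1.93 (SE 0.35, adjusted p = 0.00124 in edgeR).

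Mpeg1 is a perforin-like protein of phagocytes, and its promoter is used to label zebrafish macrophages. The ID ENSDARG00000055290 had 15.8, 18.5, 17.8, 13.3 and 13.8 CPM in hUHRF1 pools and 3.16, 4.14, 4.52, 5.75, 5.38 and 4.28 in WT pools. The groups did not overlap and spread little within a condition. The L2FC was 1.81 (SE 0.19) with an adjusted p of 2.44e-05 in edgeR. A second ID, ENSDARG00000043093, had 2.62, 3.52, 1.25, 1.36 and 2.61 CPM in hUHRF1 pools and 0.735, 0.329, 1.58, 0.195, 0.420 and 0.396 in WT pools. Here the WT pool of clutch 6 lay above the hUHRF1 pools of clutches 7 and 8. This ID was called with an L2FC of 1.83 (SE 0.50) and an adjusted p of 0.0133, and within clutches 4 to 6 alone its adjusted p was 0.117. The ID ENSDARG00000078569 had 2 counts in all over the hUHRF1 pools and 2 over the WT pools. How alike these copies are in sequence was not examined. Reads may have been assigned to the wrong copy, which was not tested. The split between IDs is therefore uncertain here, as it is for mfap4, the granulins and the ctss2 genes.

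The receptors among the markers are havcr1 and marco. havcr1 (ENSDARG00000040178) encodes a member of the TIM family of phosphatidylserine receptors, which mammalian kidney tubules also express after injury. It had 11.3, 12.8, 17.4, 11.3 and 21.7 CPM in hUHRF1 pools and 1.91, 0.854, 2.72, 2.34, 4.46 and 3.41 in WT pools. No pool overlapped, and the L2FC was 2.51 (SE 0.34) with an adjusted p of 0.000147 in edgeR. Pronephros markers, summed, had 48.1 to 186 CPM in hUHRF1 pools and 30.9 to 76.3 in WT pools. Of these, 2 of 5 tested were called higher, where 14.5% of all tested genes were. The part of the pronephros in the havcr1 result was not tested.

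marco (ENSDARG00000059294), a scavenger receptor that binds bacteria and modified lipoproteins, had 9.33, 10.9, 5.11, 3.44 and 7.58 CPM in hUHRF1 pools. Its WT pools had 0.882, 0.197, 3.91, 1.17, 1.43 and 0.951 CPM. The WT pool of clutch 6 stood far above the other WT pools and overlapped the hUHRF1 pool of clutch 8. marco was called with an L2FC of 2.31 (SE 0.52) and an adjusted p of 0.00479 in edgeR. When that WT pool was left out the L2FC was 2.99, and within clutches 4 to 6 alone the adjusted p was 0.106.

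grn1 (ENSDARG00000089362, named grna.1 in the table) encodes a short progranulin, a growth factor precursor that macrophages secrete. It had 9.07, 10.99, 11.2, 20.9 and 10.3 CPM in hUHRF1 pools and 5.74, 5.52, 3.34, 8.57, 6.05 and 1.98 in WT pools. The groups did not overlap, but the hUHRF1 pool of clutch 4 and the WT pool of clutch 7 were close. The L2FC was 1.27 (SE 0.33) with an adjusted p of 0.0104 in edgeR, and 0.081 and 0.0902 within clutches 4 to 6 and 7 to 9 alone. An antisense gene at this locus, grnas, had 9 counts over the hUHRF1 pools and 18 over the WT pools, and the strand setting of the counting is not given in the sources used here. The rest of the progranulin family was called higher too: grna with an L2FC of 2.55 (adjusted p = 0.00154), grn2 with 1.52 (adjusted p = 0.00617) and grnb with 0.69 (adjusted p = 0.0181), the last not called without the hUHRF1 pool of clutch 8.

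The 6 IDs named mfap4, a fibrinogen-domain glycoprotein used as a macrophage marker in zebrafish, gave 2 called higher, 2 not called and 2 not tested. Of all tested genes, 14.5% were called higher. ENSDARG00000090783 had 2.62, 4.13, 4.599, 2.32 and 4.63 CPM in hUHRF1 pools and 0.368, 0.789, 1.05, 1.27, 2.44 and 1.11 in WT pools. The groups overlapped only through clutch 8, where the WT pool was slightly above the hUHRF1 pool. It was called with an L2FC of 1.65 (SE 0.40, adjusted p = 0.00722 in edgeR), though not within clutches 7 to 9 alone (adjusted p = 0.105). ENSDARG00000089667 had 0.795 to 1.91 CPM in hUHRF1 and 0.238 to 0.925 in WT, with an L2FC of 1.44 (SE 0.39, adjusted p = 0.0142), and in neither group of clutches alone was it called (adjusted p = 0.0521 and 0.337).

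ENSDARG00000090557 had 17.1, 10.5, 12.2, 14.9 and 19.0 CPM in hUHRF1 pools and 8.31, 5.65, 17.8, 23.1, 14.5 and 8.01 in WT pools. Here the WT pool of clutch 7 was the highest of all and the groups overlapped. The L2FC was 0.19 (SE 0.32, adjusted p = 0.689 in edgeR). ENSDARG00000088745 had 0.105, 0.577, 2.44, 1.12 and 3.54 CPM in hUHRF1 and 0, 0.526, 0, 0.682, 1.26 and 0.951 in WT, and the low pools came from clutches 4 to 6 in both conditions. Its L2FC was 1.47 (SE 0.91, adjusted p = 0.244). ENSDARG00000038683, at 100 counts over the hUHRF1 pools and 22 over the WT pools, did not pass the filter and had an L2FC of 1.91 (adjusted p = 0.0492) where no filter was set. ENSDARG00000038681 had 2 and 5 counts. Numbered mfap4 duplicates such as mfap4.4 have 7 further IDs, of which 3 were tested and 0 called, with a median L2FC of -0.25. Since 29.1% of all tested genes were called in either direction, 0 of 3 cannot show that these duplicates did not change. Summed, these duplicates had 3.14 to 6.72 CPM in hUHRF1 pools and 4.19 to 6.99 in WT pools.

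cd74a (ENSDARG00000009087), the invariant chain of MHC class II, was at the limit of detection. It had 6, 10, 6, 3 and 3 counts in the hUHRF1 libraries and 0, 5, 1, 0, 0 and 0 in the WT libraries. A count of 0 allows up to 3 counts in a library, and the WT pool of clutch 5 reached the level of the hUHRF1 pools. cd74a was not tested in the filtered table. Without a filter its L2FC was 1.97 (SE 0.89) with an adjusted p of 0.157 in edgeR, where 7.24% of the 28134 genes in that table were called higher and 15% in either direction. The duplicate cd74b had 0.758 to 1.76 CPM in hUHRF1 and 0.195 to 1.77 in WT (L2FC 0.44, adjusted p = 0.515). Of 11 tested genes of class II presentation, 5 were called higher, where 14.5% of all tested genes were. These were the ctss2 duplicates, the lysosomal thiol reductase gene ifi30 (L2FC 1.19, adjusted p = 0.0151) and both IDs for nfya, a general promoter factor. The 5 count ctss2.1 again, and without it 4 of 10 were called higher. The nfya ID ENSDARG00000001621 was not called without the hUHRF1 pool of clutch 4, 7 or 8 or the WT pool of clutch 4, 7 or 9.

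**Figure D2:**
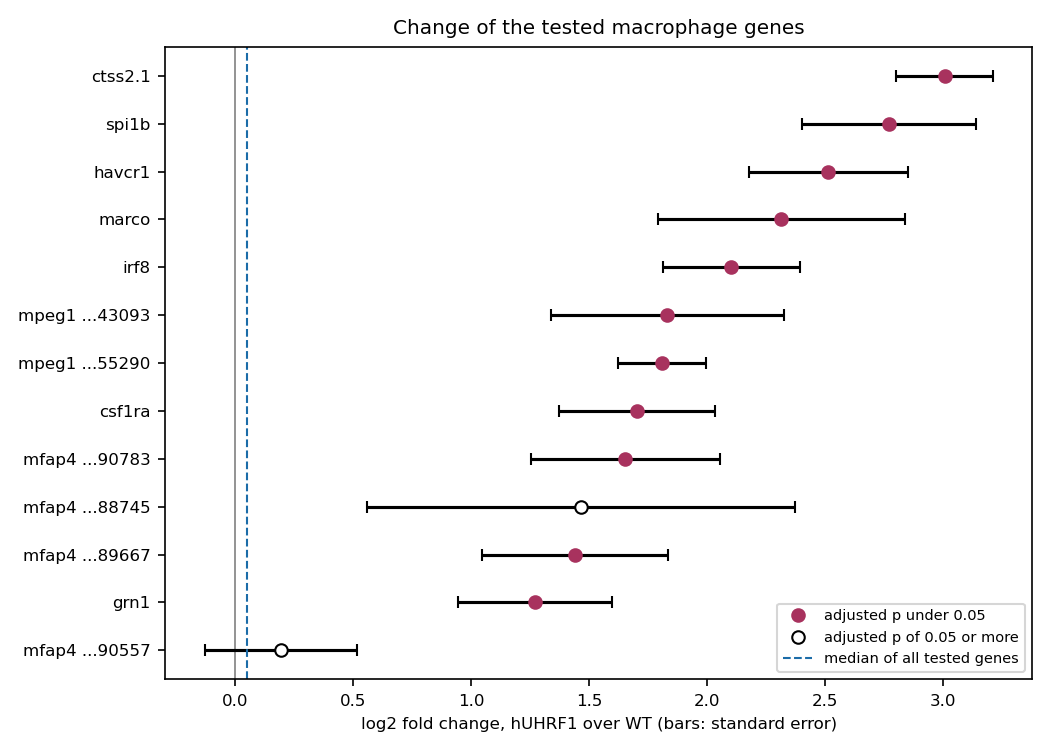
L2FC of hUHRF1 over WT (horizontal axis, log2 scale) with bars of 1 SE for each of the 13 tested macrophage marker IDs. Filled points were called at an adjusted p under 0.05; ctss2.1 is highest at 3.01 and mfap4 ENSDARG00000090557 lowest at 0.19.

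Pools of the same clutch were then set side by side, which removes differences between clutches. Over the 13 tested IDs and 5 clutches, 61 of 65 log2 ratios of hUHRF1 to WT were above 0. Over all tested genes, 49.5% to 53.3% were higher in the hUHRF1 pool of a clutch. The 65 ratios share pools, 4 of the IDs were tested because of their hUHRF1 pools, and the count is a description. All 13 IDs were higher in the hUHRF1 pool in clutches 4 and 9, 12 in clutches 6 and 7, and 11 in clutch 8. The median ratio over the 13 was 1.98, 2.01, 2.02, 1.2 and 1.95 in clutches 4, 6, 7, 8 and 9, against -0.01 to 0.08 over all tested genes. Clutch 8 gave the smallest ratio for 9 of the 13 IDs. In that clutch the hUHRF1 pool was the lowest of its condition for 6 of the 13, and the WT pool was the highest of its condition for 6. The 7 IDs of the stricter table gave medians of 1.98, 2.19, 2.36, 1.29 and 2.31.

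**Figure D3:**
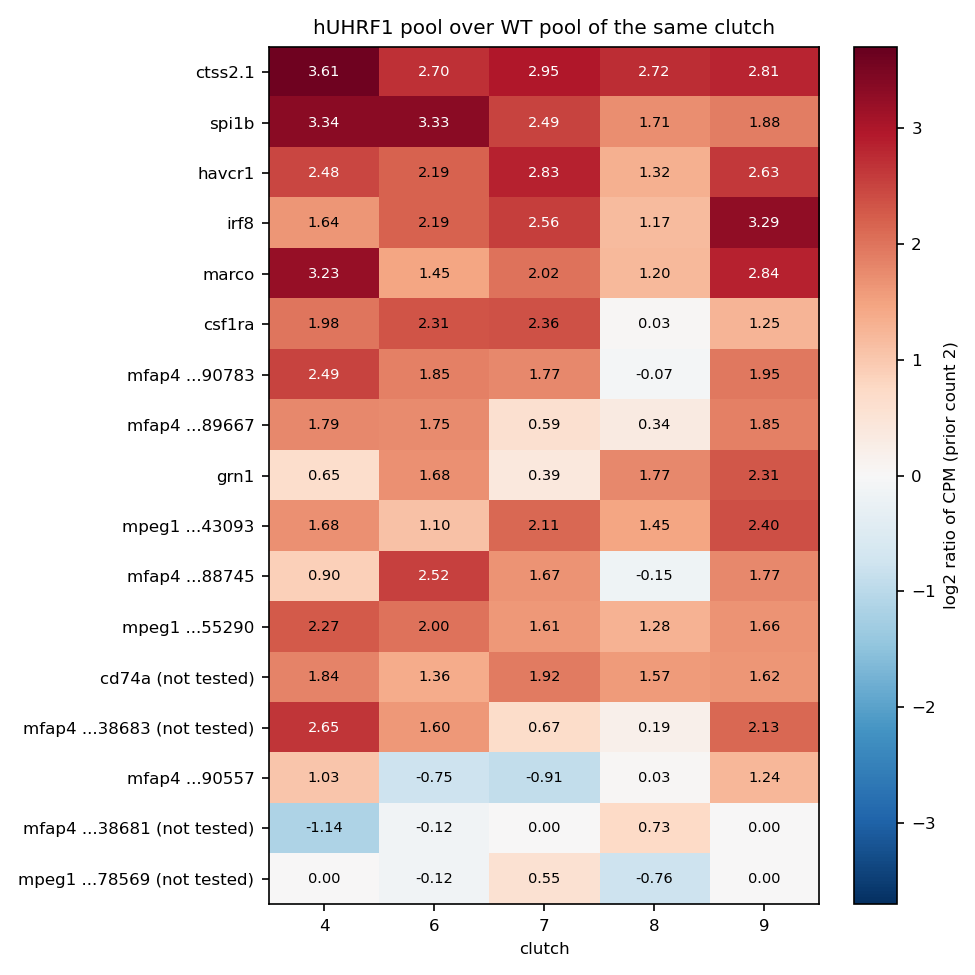
log2 ratio of hUHRF1 over WT CPM (prior count 2) within each clutch that gave both pools (columns), printed and coloured for each of the 17 macrophage marker IDs (rows), red above 0 and blue below. Over the 13 tested IDs, 61 of the 65 ratios lie above 0, and clutch 8 has the lowest median at 1.2. Of all tested genes, 49.5% to 53.3% lie above 0 in a clutch.

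The clutches fall into groups by the wording of their labels, 4 to 6 and 7 to 9, and each group was also fitted alone. Of the 13 tested IDs, 7 were called higher in clutches 4 to 6, where 4.72% of 17102 tested genes were, and 7 in clutches 7 to 9, where 7.71% of 15467 were. In clutches 4 to 6, mfap4 ENSDARG00000088745 did not pass the filter and was not tested. A difference in change between these groups passed edgeR's test for 0 of the 13 at an adjusted p under 0.05, and for 0 at an unadjusted p under 0.05. At an adjusted p under 0.05 it passed for 0 of all tested genes too. The test therefore cannot show that the markers changed alike in both groups. ctss2.1, irf8, havcr1 and mpeg1 ENSDARG00000055290 were called in both groups, as was spi1b, which is not in the stricter table.

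Macrophage markers did not vary together closely from pool to pool. After the mean of its condition was subtracted from each pool, the Pearson r over 11 pools for the 78 pairs of tested IDs ran from -0.646 to 0.778 with a median of 0.271, and 55 pairs were above 0. These values share library, depth and scaling and are a description. Counting error also enters them, since some IDs have few WT counts, such as 4 to 17 for spi1b and 3 to 11 for mfap4 ENSDARG00000089667. By the rule for mpeg1.1, which could not be resolved to an ID, ctss2.1 took its place as the macrophage marker with the highest average log2 CPM. The 8 genes whose pools most resembled it were picked as the highest r of 12470 genes over 11 pools, so these r are a description. The first were gpaa1 (r = 0.960, L2FC 0.40), gpa33b (r = 0.903, L2FC 2.26), tmem161a (r = 0.903, L2FC -0.66) and ggt1b (r = 0.867, L2FC 1.29). Next were edem1 (r = 0.862, L2FC 0.27), rabggtb (r = 0.859, L2FC 1.21), the cathepsin K gene ctsk (r = 0.858, L2FC 2.04) and zgc:64065 (r = 0.857, L2FC 0.59). In edgeR gpa33b, rabggtb and ctsk were called higher and tmem161a lower (adjusted p = 0.0145). The others, gpaa1 included (adjusted p = 0.159), were not called.

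Of 26 other macrophage genes tested, 18 were called higher and 1 lower, with a median L2FC of 1.68. Of all tested genes, 14.5% were called higher and 14.6% lower. The lists were chosen with earlier results of these data known, so their counts are a description. In the stricter table, 8 of 16 were called higher and 1 lower, with a median of 0.73, where 17.5% of its genes were called higher. fcer1gl, an adaptor of Fc receptors, had 7.06 ± 1.26 CPM (SD, n = 5) in hUHRF1 and 1.63 ± 0.692 (SD, n = 6) in WT, and the L2FC was 2.13 (SE 0.29, adjusted p = 0.000151 in edgeR). lgals9l1, a galectin gene, had an L2FC of 3.88 (SE 0.57, adjusted p = 0.000255) and slc7a7, an amino acid transporter of microglia precursors, 2.70 (SE 0.42, adjusted p = 0.00039). The complement gene c1qc had an L2FC of 2.46 (SE 0.39, adjusted p = 0.000452). The gene called lower was apoc1, an apolipoprotein that hepatocytes also make, at an L2FC of -2.16 (SE 0.33, adjusted p = 0.000392). Those called higher include mrc1a, which is listed for endothelium too, and the part of other cells in them was not tested. Summed, the 32 IDs of this list had 2969 to 6502 CPM in hUHRF1 pools and 5257 to 11210 in WT pools. Among those not called, named outside the rule, were the lysosomal genes cd68 (L2FC 0.41, adjusted p = 0.118), ctsla (0.38, adjusted p = 0.228), lgmn (0.42, adjusted p = 0.39) and hexb (0.52, adjusted p = 0.145) and the transcription factor gene mafba (-0.06, adjusted p = 0.886). The 4 lysosomal genes were called higher by library totals only, with L2FC of 1.14 to 1.34. That scaling called 8860 of 15838 genes, 93.1% of them higher, and the median L2FC of all tested genes was 0.835.

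Of 13 tested myeloid transcription factors, 6 were called higher and 1 lower, with a median L2FC of 0.46, and 3 of 10 were higher and 1 lower in the stricter table, with a median of 0.10. The shares called higher were 14.5% over all tested genes and 17.5% over all genes of the stricter table. The 6 count spi1b and irf8 again and included batf3 (L2FC 2.74, adjusted p = 0.000545), a factor of dendritic cells in mammals, nr4a1 (L2FC 1.98, adjusted p = 0.00494) and irf5 (L2FC 1.39, adjusted p = 0.00582). The factor called lower was cebpd (L2FC -1.31, adjusted p = 0.0092; -0.52 and adjusted p = 0.139 by library totals only), named after its value was seen. Genes of leukocytes in general were higher as well, 12 of 16 tested, with a median L2FC of 1.49, and 5 of 7 in the stricter table, with a median of 1.35. The integrin gene itgb7 had 5.40 ± 0.763 CPM (SD, n = 5) in hUHRF1 and 0.581 ± 0.160 (SD, n = 6) in WT, with an L2FC of 3.201 (SE 0.27) and an adjusted p of 6.25e-06 in edgeR. The actin regulator coro1a had an L2FC of 2.32 (adjusted p = 0.000158). ptprc, the pan-leukocyte phosphatase CD45, had an L2FC of 1.34 (SE 0.43) and an adjusted p of 0.032, and it was not called without the hUHRF1 pool of clutch 6 or without the WT pool of clutch 4, 6, 7 or 9.

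Markers of other cells that a liver pool could hold were read beside these values. The share of all tested genes called higher was 14.5%. Neutrophil markers, summed, had 51.3 to 78.4 CPM in hUHRF1 and 32.4 to 49.5 in WT, and 2 of 8 tested were called higher: adam8a (L2FC 1.71, adjusted p = 0.00852) and abcb9 (L2FC 0.90, adjusted p = 0.0281). abcb9 was not called without the hUHRF1 pool of clutch 4 or 9 or the WT pool of clutch 4, 5 or 7. Among the 8 tested neutrophil markers, 7 had an L2FC above 0, and the median was 0.49. The stricter table retained 3 neutrophil markers and called 2 higher, where 17.5% of its genes were. The granule genes lyz and npsn, named outside the rule and not called, had L2FC of 0.70 (adjusted p = 0.503) and 0.27 (adjusted p = 0.748). These values cannot show that neutrophils did not change. The neutrophil marker mpx matched no ID and was not analysed. Lymphocyte markers summed to 1.88 to 4.43 CPM in hUHRF1 and 0.876 to 3.81 in WT, and none of their 17 IDs passed the filter. Endothelial markers, summed, had 276 to 333 CPM in hUHRF1 and 238 to 352 in WT, with 4 of 10 called higher. These were mrc1a (L2FC 1.83, adjusted p = 0.00175), stab2 (L2FC 1.61, adjusted p = 0.00237), flt4 (L2FC 0.74, adjusted p = 0.0211) and stab1 (L2FC 0.53, adjusted p = 0.0248), of which macrophages also express mrc1a and stab1. flt4 was not called without the hUHRF1 pool of clutch 4, nor stab1 without the hUHRF1 pool of clutch 8 or the WT pool of clutch 4, 5, 6, 7 or 9. The part of these cell types in the macrophage result was not tested. The summed macrophage markers had 110.8 to 140.4 CPM in hUHRF1 and 28.0 to 52.5 in WT.

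Hepatocyte markers went the other way. Their sum was 36408 to 82354 CPM in hUHRF1 and 112187 to 190052 in WT, with 11 of 12 tested called lower and a median L2FC of -1.65. Of all tested genes, 14.6% were called lower. The transferrin gene tfa had an L2FC of -2.12 (SE 0.28, adjusted p = 0.000114 in edgeR). With libraries scaled by their totals only, the median L2FC of all genes was 0.84 and that of the 13 tested macrophage markers 2.58. The part of the hepatocyte markers in the macrophage result was not tested.

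**Figure D4:**
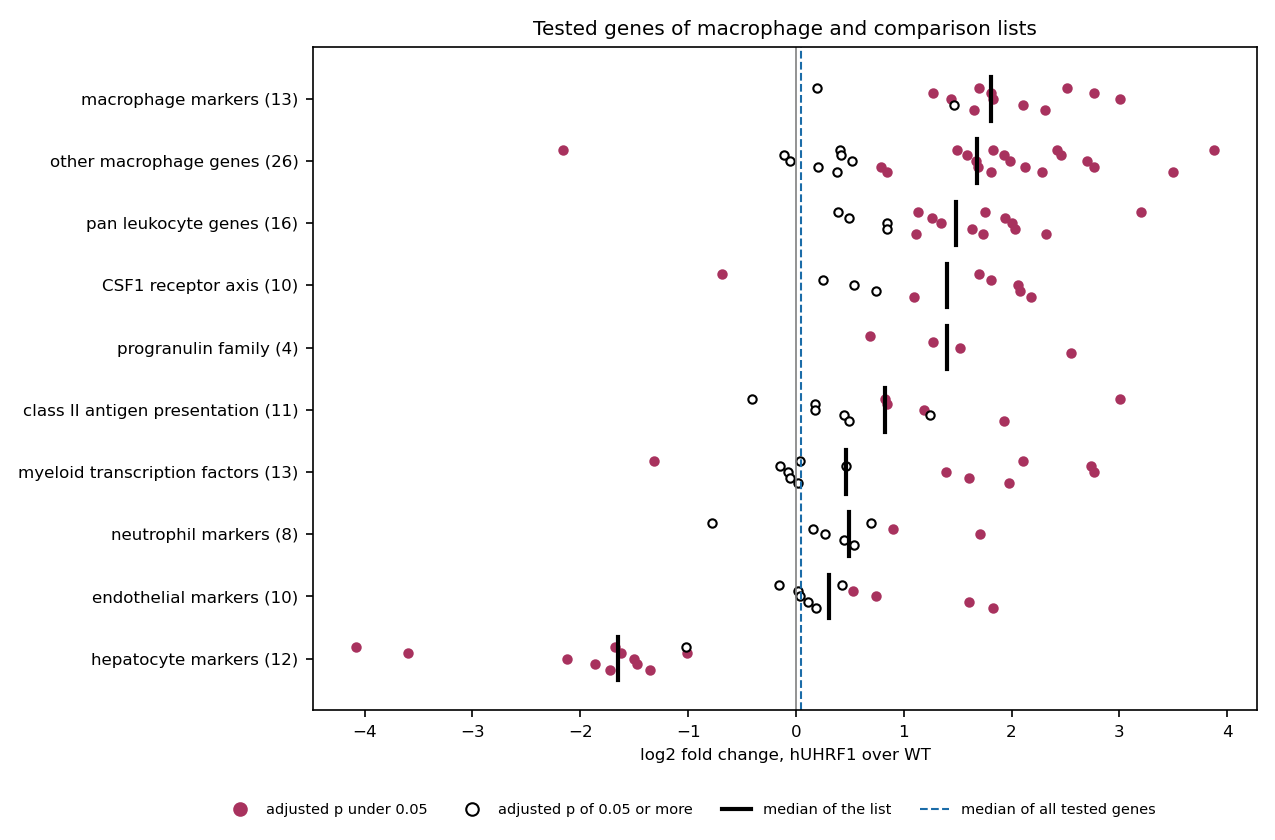
L2FC of hUHRF1 over WT (horizontal axis, log2 scale) of the tested genes of each list, with filled points for genes called at an adjusted p under 0.05, a bar for the list's median and a dashed line for the median of all tested genes. The macrophage markers have a median of 1.81 and the hepatocyte markers one of -1.65.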

How the data were processed

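RNA-seq of 11 liver pools was analysed. The authors aligned reads to GRCz10 with HISAT2 and obtained gene counts with HTSeq. The deposited counts are not normalized, and the annotation release and strand setting are not given in the sources used here. Samples were grouped by the condition in their labels. Low genes were removed with filterByExpr (count of at least 10, total of at least 15, by condition), and libraries were scaled with TMM and conditions compared with edgeR 4.0.16's quasi-likelihood test in R 4.3.3, with Benjamini-Hochberg adjustment. CPM are on the TMM scale, and log2 CPM have a prior count of 2. DESeq2 1.42.0 was an alternative. The procedure was tested on simulated data with balanced changes and no clutch effect. That simulation cannot show how the procedure handles a shift in the makeup of the libraries.

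Names were matched in any case, and otherwise by RefSeq synonyms (GRCz12tu), and 26269 IDs had a name. Names still unmatched were tried without the suffix of a duplicate. This gave the ID named mrc1 for mrc1a and the ID named grb2 for grb2a. The macrophage markers and all lists were chosen with earlier results of these data known. The genes named are the 10 macrophage markers, up to 5 called genes of smallest adjusted p of each list, the ligands of the CSF1 receptor, duplicates of the markers, ptprc, and the 8 genes most like ctss2.1. Planned promoter motifs were not analysed here. Clutch numbers come from the titles and mark siblings, and same-clutch pools had correlated deviations in each of the 5 pairs (r = 0.206 to 0.481). Pools of different clutches were not compared, so these r cannot show that siblings were more alike. Intervals and floors cover counting error only.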

Additional observations from a re-analysis of the deposited data

Results flagged for a closer look

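In 26 sets of pools (13 tested macrophage markers in each condition), 5 held a pool far from the others. The rule used flags about 1 in 20 sets of normally distributed values. These sets hold CPM on a linear scale and share the same 11 pools, so that rate cannot show an excess here. csf1ra was at 3.45 CPM in the WT pool of clutch 8, against 2.06 in the next highest WT pool. spi1b was at 0.294 CPM in the WT pool of clutch 4, where the next lowest WT pool had 0.672. marco was at 3.91 CPM in the WT pool of clutch 6, and the next highest WT pool had 1.43. mfap4 ENSDARG00000089667 was at 0.925 CPM in the WT pool of clutch 8, against 0.487 in the next highest. grn1 was at 20.9 CPM in the hUHRF1 pool of clutch 8, and the next highest hUHRF1 pool had 11.2.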

How the results depend on the processing

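The number of macrophage markers called higher was 11 of 13 in the comparison reported and with each of the 11 libraries left out in turn. It was 11 of 13 too with clutch as a replicate block, which paired pools of a clutch. The block called 5566 of 15838 genes, 48.8% of them higher. The number of markers was 6 of 7 with at least 10 counts in every library. It was 7 of 13 within clutches 4 to 6 and within clutches 7 to 9, where fewer samples enter. The 13 tested within clutches 4 to 6 leave out mfap4 ENSDARG00000088745 and include an ID not tested in the main comparison. The number called higher was 12 of 15 with DESeq2, where 5416 of 20389 genes were called in either direction, 49.4% of them higher. With no filter it was 12 of 17, where 7.24% of genes were called higher. With libraries scaled by their totals only, all 13 were called, mfap4 ENSDARG00000090557 (L2FC 0.96, adjusted p = 0.0242) and ENSDARG00000088745 (2.25, adjusted p = 0.0411) included, and the median within clutches was 2.71 instead of 1.98. Over all genes, 4612 of 15838 were called, and 8860 of 15838 by totals only (93.1% of them higher, against 49.8% with TMM). The number was 1784 within clutches 4 to 6 and 2541 within clutches 7 to 9. With a library left out it was 3881 to 4504 of 15523 to 16186 genes, with 48.1% to 50.1% of them higher. No tested macrophage marker changed direction in these alternatives. Adding the block changed no call of a tested marker. Depth limits cd74a and the low mfap4 and mpeg1 IDs.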

Other observations

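Genes listed for liver-resident macrophages and red cell engulfment had a median L2FC of 0.08 over 8 tested, with 2 called higher (stab1, given above, and c6ast4, with an L2FC of 2.03 and an adjusted p of 0.0203 in edgeR, not called without the hUHRF1 pool of clutch 9) and 2 lower. Several of these 8 are also expressed by hepatocytes or endothelium, and of all tested genes 14.5% were called higher and 14.6% lower. The more specific timd4 (23 counts over the hUHRF1 pools and 3 over the WT pools) and spic (25 and 11) did not pass the filter, and cd163, vsig4, clec4f and cd5l were not analysed here. Those called lower were nr1h3, a lipid-sensing nuclear receptor that hepatocytes also express, at 61.8 ± 12.04 CPM (SD, n = 5) in hUHRF1 and 173 ± 32.1 (SD, n = 6) in WT (L2FC -1.48, adjusted p = 0.000134 in edgeR), and mertka, a receptor for dying cells (L2FC -1.17, adjusted p = 0.000315; -0.37 and adjusted p = 0.134 by library totals only). The erythrocyte marker hbae3, an embryonic globin, was also lower (L2FC -0.98, adjusted p = 0.0216), though not called without the hUHRF1 pool of clutch 9 or by library totals only (L2FC -0.18, adjusted p = 0.596).

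Of the pronephros markers, cdh17, an epithelial cadherin, had 38.6 ± 17.5 CPM (SD, n = 5) in hUHRF1 and 11.6 ± 5.58 (SD, n = 6) in WT, with an L2FC of 1.74 (SE 0.35, adjusted p = 0.00243 in edgeR). The ion pump gene atp1a1a.4 had an L2FC of 1.43 (adjusted p = 0.032) and was not called without the hUHRF1 pool of clutch 4, 7 or 9 or the WT pool of clutch 4, 5 or 8, or with clutch as a block (adjusted p = 0.13).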
